A study of Mus musculus with 4 samples.

Results

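Mesenchyme-generic was the class name given by the authors to 445 of the 6155 cells deposited from mouse colonoid cultures, out of 1948 cells in 4 mesenchymal classes. Its members were taken as annotated, and the library of each cell was read from the genotype and treatment recorded for it. The other mesenchymal classes were Mesenchyme-Ifitm1 (893 cells), Mesenchyme-Ptges (497 cells) and Mesenchyme-proliferative (113 cells). The classes came from clustering of these same cells, so each comparison between classes is a description without a test.

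Colonoids were grown in Matrigel from the distal colon of 16-week-old mice, either wildtype (WT) or Tnfr2-/-, which lacks TNF receptor 2, encoded by Tnfrsf1b, in every tissue (strain B6.129S2-Tnfrsf1b tm1Mwm/J in the study's methods). Cultures at passage 5 received vehicle or 20 ng/ml TNF from day 1 to day 6 after passage. On day 7 they were dissociated with TrypLE, freed of Annexin V-binding dead cells and made into 10x Chromium 3' libraries. There was 1 library for each of the WT Vehicle, WT TNF, Tnfr2-/- Vehicle and Tnfr2-/- TNF groups, so differences between groups have no replicate and genotype, animal, sex and culture cannot be told apart.

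Fibroblasts of the colonic mucosa lay down and remodel collagen, supply Wnt agonists such as R-spondins near the crypt base, and supply BMP ligands near the crypt top. Inflamed fibroblasts also secrete complement, acute-phase proteins and chemokines. Interferons induce genes for antiviral proteins, guanylate-binding proteins and antigen presentation.

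The class held 393 cells in WT Vehicle, 1 cell in WT TNF, 51 cells in Tnfr2-/- Vehicle and 0 cells in Tnfr2-/- TNF. It made up 27.5% (exact binomial 95% interval 25.2 to 29.9) of 1430 mesenchymal cells in WT Vehicle and 56.7% (45.8 to 67.1) of 90 in Tnfr2-/- Vehicle. With TNF it made up 0.327% (0.00827 to 1.81) of 306 cells in WT and 0 of 122 cells in Tnfr2-/-, which by the limit of 3 counts allows a share of up to 2.46%. The share was thus higher in the Tnfr2-/- Vehicle library and at or near 0 in both TNF libraries. Read against all cells of a library the order of the Vehicle pair turned, with 15.2% (13.8 to 16.6) of 2589 cells in WT and 4.57% (3.42 to 5.96) of 1117 cells in Tnfr2-/-. In WT Vehicle most other mesenchymal cells were Mesenchyme-Ifitm1 (892 cells), whereas in Tnfr2-/- Vehicle they were Mesenchyme-Ptges (37 cells). These intervals, and those on levels below, cover counting error only.

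**Figure D1:**
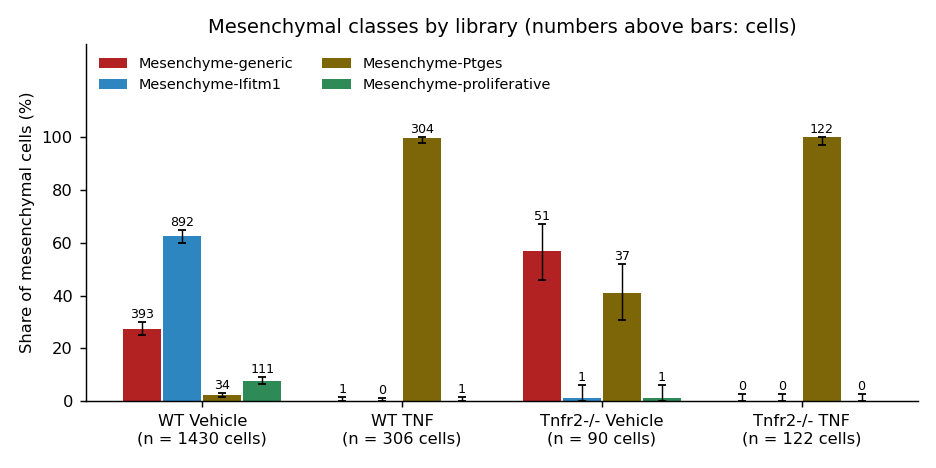
Share of mesenchymal cells (%) in each of the 4 classes, by library. Bars give the share, error bars the exact binomial 95% interval, and numbers the cells; Mesenchyme-generic held 393 and 51 cells in the Vehicle libraries and 1 and 0 cells in the TNF libraries.

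Levels were unique molecular identifiers (UMIs) summed over the cells of a class in a library, scaled to the UMI total of the same cells (counts per 1e+06 UMIs, CPM), with exact Poisson 95% intervals. The class rested on 8973465 UMIs in WT Vehicle (median cell 21807, mitochondrial share 3.21%) and 1310496 UMIs in Tnfr2-/- Vehicle (median cell 24774, mitochondrial share 4.32%). WT Mesenchyme-Ptges, by contrast, was 34 shallow cells with 342542 UMIs, a median of 5755 UMIs and a mitochondrial share of 16.7%. Among the 445 cells, 6 were called doublets and 1 carried a barcode that another library also held.

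Of the 7 markers given for the class, Mgp, Chodl and Saa3 were at least 2-fold higher in it than in each of the 3 other WT Vehicle classes. Mgp, a matrix protein that inhibits calcification, was at 631 CPM in the class, 131 CPM in Mesenchyme-Ifitm1, 20.4 CPM in Mesenchyme-Ptges and 168 CPM in Mesenchyme-proliferative. Chodl, a membrane protein with a C-type lectin domain, was at 772 CPM against 27.0, 20.4 and 17.6 CPM in the same order. Chodl therefore stood 28.6-fold (26.3 to 31.2) above Mesenchyme-Ifitm1, its nearest class among these. Saa3, an acute-phase apolipoprotein, was at 32010 CPM against 8882, 8198 and 3796 CPM.

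The other 4 markers were highest in the class too, yet under 2-fold above Mesenchyme-Ptges. Ctsk, the collagen-degrading cathepsin K, was at 1733 CPM against 579, 928 and 398 CPM. Dcn, the collagen-binding proteoglycan decorin, was at 5099 CPM against 1047, 2683 and 836 CPM. C3, the central complement component, was at 1394 CPM against 431, 1048 and 238 CPM. Apoe, a lipid carrier, was at 1341 CPM against 722, 791 and 196 CPM. With TMM or median-of-ratios scaling 5 of the 7 markers passed 2-fold, Ctsk and Dcn being added. Of 11 tested complement genes 0 passed 2-fold against all 3 classes under any of the scalings, and over all tested genes only 0.795% did so upward without rescaling.

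On GRCm38 (GENCODE M21), Mgp lies on chromosome 6 from 136872435 to 136875823 (minus strand) and Chodl on chromosome 16 from 78930948 to 78951733 (plus strand). Saa3 lies on chromosome 7 from 46711998 to 46715700 (minus strand).

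**Figure D2:**
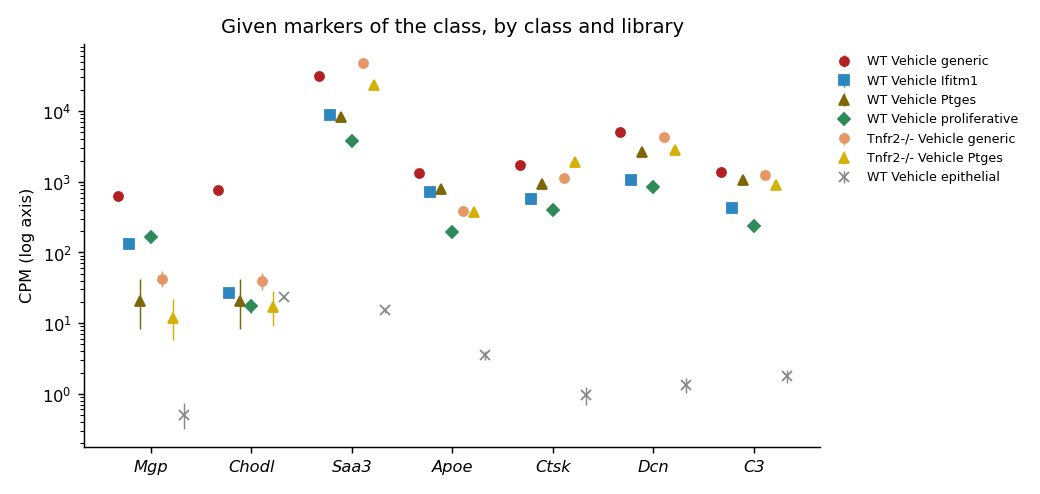
Levels (CPM, log axis) of the 7 given markers in each class and library. Points are sums over cells and error bars exact Poisson 95% intervals; WT Vehicle Mesenchyme-generic is highest of the 4 WT mesenchymal classes for all 7, while the Tnfr2-/- cells of the same class are far lower for Mgp (42.7 CPM) and Chodl (38.9 CPM).

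Of 10 tested general fibroblast genes 0 were higher and 1, S100a4, was lower than in each other class. Over all tested genes these shares were 0.795% and 2.55%. The median log2 differences of the list were -0.13, -0.72 and 0.08 against Mesenchyme-Ifitm1, Mesenchyme-Ptges and the proliferative class. Col1a1 was at 3806 CPM in the class and between 1689 and 2639 CPM in the others, and Col3a1 at 3345 CPM against 3456 to 5906 CPM. Pdgfra, the fibroblast PDGF receptor, was at 149.8 CPM against 145 to 295 CPM. Endothelial, glial, mesothelial, immune and adipocyte markers were near 0, with list sums in WT Vehicle of 2.45, 1.45, 0.892, 23.5 and 13.5 CPM and no tested member. The defining markers Ptprc and Cd3e (immune), Cdh5 (endothelial), Sox10 (glial) and Adipoq (adipocyte) had 0 UMIs, and Lyz2, a macrophage gene, was at 11.7 CPM. Epithelial markers summed to 172 CPM over 10 genes in the class, 105 to 418 CPM in the other mesenchymal classes and 19840 CPM in epithelium, with Krt8 at 31.1, 2.92 to 68.0 and 4702 CPM. Acta2, the smooth muscle actin of myofibroblasts, was low at 14.7 CPM against 90.5, 5.84 and 242 CPM, and Mki67 and Top2a were at 6.69 and 7.36 CPM against 546 and 614 CPM in the proliferative class.

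Across all genes, 59 of 7426 tested (0.795%) were at least 2-fold higher in the class than in each other mesenchymal class of WT Vehicle, and 189 (2.55%) at least 2-fold lower. Tested genes reached 20 CPM in at least 1 of the 4 classes, and differences are of log2(CPM + 1). Another scaling shifted the split, to 91 higher and 146 lower with TMM and to 92 and 145 with median-of-ratios. The median log2 difference over tested genes was -0.19 against Mesenchyme-Ifitm1, -0.03 against Mesenchyme-Ptges and -0.23 against the proliferative class, and -0.04, 0.11 and -0.04 with TMM. Just inside the threshold were Plxdc2 and Rai14 at a log2 difference of 1.00, and just outside it Meis1 and Slit3 at 0.99.

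Besides Chodl, the genes that stood furthest above the other classes included matrix and signalling genes. Col11a1, a fibrillar collagen chain of cartilage, was at 44.8 CPM against 3.84, 0 and 1.69 CPM. Vldlr, a lipoprotein receptor, was at 123 CPM against 15.2, 14.6 and 11.8 CPM. Mef2c, a transcription factor, was at 70.4 CPM against 15.2, 17.5 and 11.6 CPM, and Tbx18, a mesenchymal transcription factor, at 21.9 CPM against 2.44, 2.92 and 2.90 CPM. The imprinted genes Grb10 and Ndn were at 21.8 and 25.3 CPM, against measured levels of at most 2.25 and 5.31 CPM in the other classes. In WT Mesenchyme-Ptges, however, Grb10 and Col11a1 had 0 UMIs (upper interval end 10.8 CPM) and Ndn and Tbx18 had 1 UMI each (upper end 16.3 CPM). Csf3, the granulocyte growth factor G-CSF, was at 21.1 CPM against 2.48, 0 and 1.21 CPM. In Mesenchyme-Ptges of Tnfr2-/- Vehicle, WT TNF and Tnfr2-/- TNF, Csf3 was at 22.8, 117 and 168 CPM and Vldlr at 150, 35.0 and 183 CPM. The standing of these genes therefore holds for WT Vehicle only, where Mesenchyme-Ptges was 34 shallow cells. Other genes of this rank were Chchd10, Syn2, Fam241a and a (agouti), of which Chchd10, at 143 CPM, was far higher in WT epithelium (608 CPM). With new clusters Chchd10 turned to a log2 difference of -0.60.

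Matrix lists held single members that were higher in the class, beside 0.795% higher and 2.55% lower over all tested genes. Of 16 tested elastic fibre genes 1 was higher and 3 lower, the higher one being Fbln2, a basement membrane fibulin, at 557 CPM against 125, 155 and 73.8 CPM. Eln, elastin itself, was lower at 52.3 CPM against 301, 245 and 200 CPM. Among 17 tested metalloproteinases and inhibitors 1 was higher and 2 lower, with Mmp11 (stromelysin 3) at 67.3 CPM against 17.6, 2.92 and 2.41 CPM. Of 13 fibrillar and associated collagens 1 was higher (Col11a1) and 1 lower (Col8a1, 13.7 CPM against 113, 52.6 and 160 CPM). No tested member of 23 cathepsin and lysosome genes was 2-fold higher, and 1, Ctsc, was lower.

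Among 15 tested chemokines and cytokines 2 were higher and 2 lower, beside 0.795% and 2.55% of all tested genes. Cxcl12, the CXCR4 ligand that retains haematopoietic cells in tissue, was at 141 CPM against 23.2, 49.6 and 15.0 CPM, and Csf3 was given above. Il6 was low in all classes, at 8.80 CPM or less. Of 23 tested genes of TNF receptors and NF-kB 0 passed in either direction, with Tnfrsf1a at 143 CPM in the class and Tnfrsf1b at 20.5 CPM. Ptges, the prostaglandin E synthase that names another class, was at 65.8 CPM against 65.0, 187 and 65.9 CPM, and at 129 CPM in the Tnfr2-/- cells of the class against 97.3 CPM in Tnfr2-/- Mesenchyme-Ptges. Tnf was at 0.334 CPM in the class and at 12.5 CPM in WT epithelium.

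The ligands of the crypt top were lower in the class. Of 8 tested crypt-top and telocyte genes 6 were at least 2-fold lower than in every other WT class (5 with TMM or median-of-ratios) and 0 higher, with medians of -2.25, -2.26 and -1.81 on the log2 scale against the 3 classes. Over all tested genes 2.55% were lower and 0.795% higher. Bmp5 was at 1.67 CPM against 85.3, 90.5 and 90.3 CPM. Bmp4 was at 70.5 CPM against 456, 345 and 501 CPM, and Bmp2 at 95.3 CPM against 423, 359 and 268 CPM. Wnt5a, a non-canonical Wnt ligand, was at 126 CPM against 651, 739 and 554 CPM. Of the 11 tested Wnt ligands, R-spondins and antagonists 4 were lower and 0 higher, among them the antagonist Dkk2 at 12.4 CPM against 164, 90.5 and 123 CPM.

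Of the niche factors of the crypt base, Grem1 and Rspo3 were not lower than every other class. Grem1, a secreted BMP antagonist, was at 1196 CPM, above Mesenchyme-Ifitm1 (508 CPM) and the proliferative class (463 CPM) and below Mesenchyme-Ptges (1936 CPM). Rspo3, a Wnt agonist, was at 116 CPM against 54.6, 78.8 and 51.4 CPM. The adventitial and trophocyte list, which marks fibroblasts around and below the crypt base and includes Grem1, had 0 of 9 tested genes higher and 3 lower. Over all tested genes these shares were 0.795% and 2.55%. The medians of the list were -0.81, -0.69 and -1.12 on the log2 scale against the 3 classes. Its 3 lower genes were Col15a1, a collagen of basement membrane zones, at 3.57 CPM against 32.7, 38.0 and 13.5 CPM, the secreted glutathione peroxidase Gpx3 and Ly6c1. Summed, the crypt-top list was lowest in the class, at 572 CPM against 2084 to 2975 CPM, while the adventitial and trophocyte list stood at 2048 CPM against 1725, 2788 and 1525 CPM, of which Grem1 made up the largest part in the class.

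The genes furthest below the other classes, outside these lists, included enzymes and receptors. Gatm, the first enzyme of creatine synthesis, had 0 UMIs in the class in both Vehicle libraries. It was at 41.4, 40.9 and 83.3 CPM in the other WT classes, at least 124-fold above the limit of 3 UMIs in the class for Mesenchyme-Ifitm1. Adamdec1, a metalloproteinase-like protein of intestinal stroma, was at 8.14 CPM against 150, 155 and 211 CPM. Ednrb, the endothelin B receptor, was at 1.00 CPM against 43.8, 32.1 and 31.9 CPM. Aldh3a1, an aldehyde dehydrogenase, was at 2.23 CPM against 40.9 to 110 CPM, and Plagl1, Diras2 and Tmem132c were the other genes of this rank. Igfbp5, an IGF-binding protein, was at 58.1 CPM against 765, 1223 and 271 CPM.

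Within the class, cells with more Mgp tended to have less Saa3, although nearly all cells held Saa3. Mgp had a UMI in 137 of 393 WT Vehicle cells (34.9%), and 13 cells (3.31%) held 50% of its 5659 UMIs. Chodl by contrast had a UMI in 305 cells, and 59 cells held 50% of its 6929 UMIs. Saa3, Dcn and C3 were in 383, 393 and 392 of the 393 cells. Over 392 WT cells thinned to 5000 UMIs, the Spearman correlation was -0.385 for Mgp with Saa3, -0.242 for Mgp with C3 and -0.027 for Mgp with Chodl, against 0.457 for Saa3 with Dcn and 0.402 for Apoe with C3. All these cells share 1 library, so the values are a description.

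Sub-clusters of the 393 cells separated the same genes. The genes named here for a sub-cluster, except class markers, were chosen after their values were seen. Sub-cluster 1 (123 cells) had the highest Mgp (1012 CPM) and Apoe (2147 CPM). Sub-cluster 2 (108 cells) had the highest Chodl (1260 CPM) and most of the Acta2 UMIs (38.8 CPM, against 4.60 to 8.66 CPM in the others). Sub-cluster 3 (35 cells) was low in Saa3 (9179 CPM) and Chodl (101 CPM) and high in Grem1 (2240 CPM). Sub-cluster 5 (56 cells) had the highest Saa3 (63390 CPM) and only 2 Mgp UMIs (1.37 CPM, 0.166 to 4.95), against 533 to 1012 CPM in the other 4.

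Sub-cluster 4 (71 cells) was led by epithelial genes, and its epithelial list summed to 536 CPM against 56.9 to 90.4 CPM in the others. An Epcam UMI was in 19.7% of these cells and in 12% to 17.1% of the cells elsewhere, while its Epcam level was 93.2 CPM against 6.33 to 10.5 CPM. Without sub-cluster 4, 54 of the 59 genes counted above as higher and 182 of the 189 as lower were counted again. Other settings kept fewer of them. New clusters kept 41 and 86, and summing both Vehicle libraries kept 32 and 73.

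**Figure D3:**
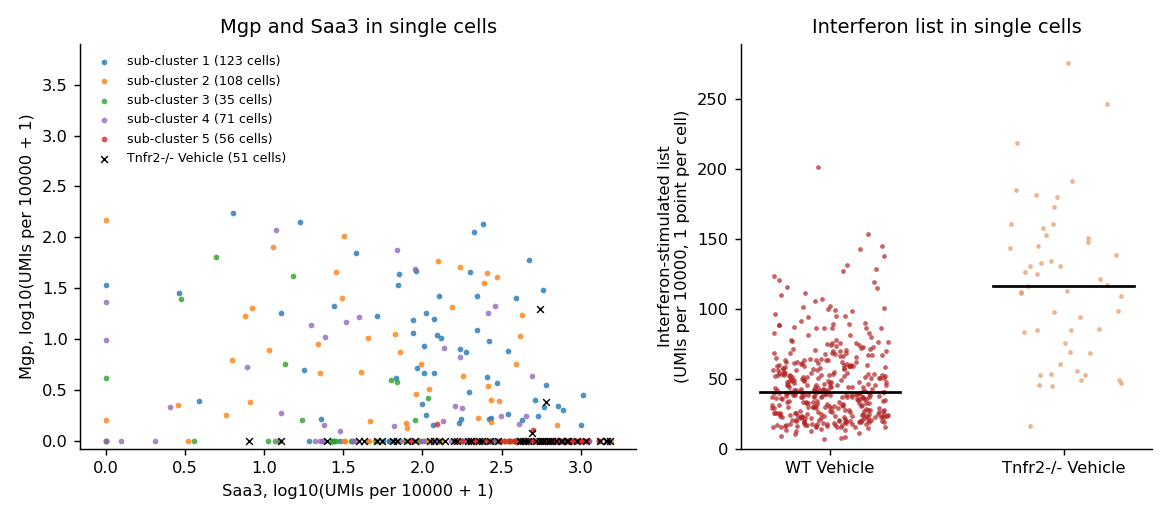
Single cells of the class. Left, Mgp against Saa3, log10 of UMIs per 10000 plus 1, with WT Vehicle cells coloured by sub-cluster and Tnfr2-/- Vehicle cells as crosses; sub-cluster 5 lies at high Saa3 with almost no Mgp, and 3 of 51 Tnfr2-/- cells have a Mgp UMI. Right, UMIs per 10000 of the interferon-stimulated list without B2m, H2-K1 and H2-D1, 1 point per cell, with lines at the medians of 40.7 (WT) and 116 (Tnfr2-/-).

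Across 26 sums of at least 30 cells (mesenchymal and epithelial classes by library) and 9955 genes, the genes most like Mgp in log2(CPM + 1) were C1qtnf3 (Pearson r 0.974), Sfrp1 (0.960), Sparcl1 (0.944), Serpina3f (0.942) and Npr3 (0.941). Those most like Saa3 were Lcn2 (0.973), Slit2 (0.970), Gpc1 (0.965), Angptl2 (0.963) and Serpine2 (0.960). The sums share libraries and include epithelium, where these genes were near 0, so the values only describe the order.

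The genotype comparison starts from the targeted gene. Tnfrsf1b (chromosome 4, 145213463 to 145246870, minus strand) had 184 UMIs in the 393 WT cells and 3 UMIs in the 51 Tnfr2-/- cells, 20.5 and 2.29 CPM, an 8.96-fold difference (3.02 to 43.8). In the Tnfr2-/- library Mesenchyme-Ptges was at 16.8 CPM. Which exons this allele lacks is not given in the sources, and reads at the 3' end may lie outside them, so these UMIs are no check of the label. Tnfrsf1a, the other TNF receptor, was at 143 and 156 CPM.

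Of 6341 genes tested in the class, 374 (5.9%) passed 2-fold upward in Tnfr2-/- Vehicle against WT Vehicle, and 147 (2.32%) passed it downward. The counting intervals of the libraries did not overlap for any of these 521 genes, and the share over all tested genes is not given here. The intervals leave out the spread between animals and cultures, so this adds no support to the differences. The median log2 difference over tested genes was 0.11. TMM scaling moved it to -0.04 and the split to 298 higher and 222 lower, and median-of-ratios to -0.03 and 303 and 218.

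**Figure D4:**
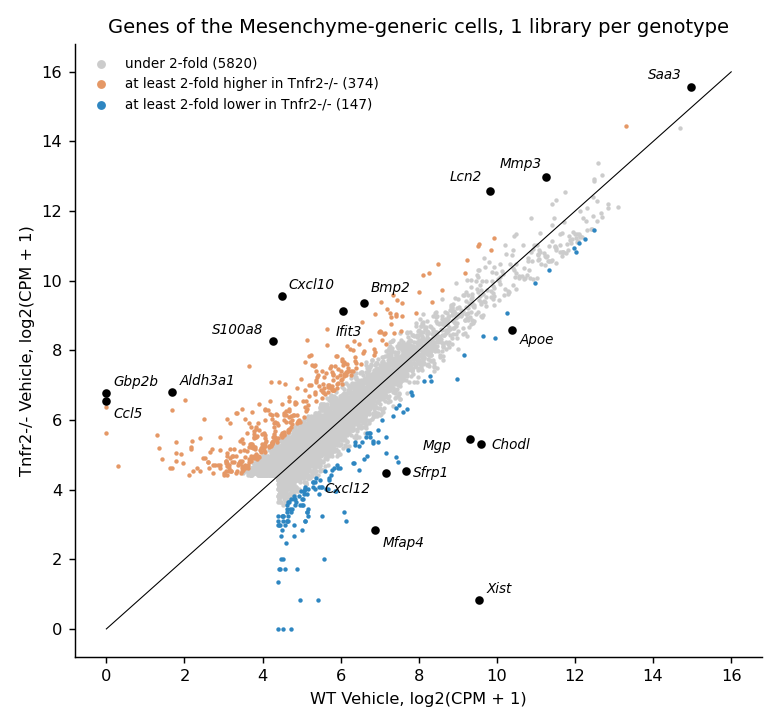
Each point is 1 of 6341 genes in the Mesenchyme-generic cells, with log2(CPM + 1) in WT Vehicle on the x axis and in Tnfr2-/- Vehicle on the y axis. The line marks equal levels; orange points (374) passed 2-fold upward in Tnfr2-/-, blue points (147) passed it downward, and named genes are those of the text.

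Sex-linked transcripts divided the libraries. Xist had 6712 UMIs (748 CPM) in the WT cells and 1 UMI in the Tnfr2-/- cells, while Ddx3y had 0 and 107 UMIs (81.7 CPM) and Eif2s3y 0 and 63 UMIs (48.1 CPM). The class thus carried Xist in WT Vehicle and Y-linked transcripts in Tnfr2-/- Vehicle. Epithelial cells of the Tnfr2-/- Vehicle library carried hardly any of either, with 8 Xist, 1 Ddx3y and 0 Eif2s3y UMIs in 50648198, whereas WT Vehicle epithelium had 28074 Xist and 81 Ddx3y UMIs. Tnfr2-/- Mesenchyme-Ptges had 0 Xist and 54 Ddx3y UMIs. Every genotype difference below was therefore also one between cells with and without these transcripts. Whether the mesenchyme and the epithelium of the Tnfr2-/- Vehicle library came from the same animals is not given in the sources used here and was not tested.

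Genes that interferons induce were higher in the Tnfr2-/- cells. Of 28 tested interferon-stimulated genes 22 were at least 2-fold higher in Tnfr2-/- and 0 lower, a count that was also 22 with TMM and with median-of-ratios. Their median log2 difference was 1.77, beside 0.11 over all tested genes, of which 5.9% were higher and 2.32% lower. Cxcl10, a T cell chemokine, was at 21.4 CPM (18.5 to 24.7) in WT and 753 CPM in Tnfr2-/-, a 35.2-fold difference (30.1 to 41.3). Ifit3, an antiviral RNA-binding protein, was at 65.6 and 559 CPM, an 8.51-fold difference (7.62 to 9.50). Ifit1 was at 49.4 and 390 CPM and Rsad2, the antiviral enzyme viperin, at 4.68 and 64.9 CPM. B2m and Ifitm3 were among the 6 that did not pass, at 2718 and 4698 CPM and at 1888 and 3579 CPM.

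More members of the same list, named after their values were seen, covered its main functions. The ubiquitin-like Isg15 was at 161 CPM in WT and 768 CPM in Tnfr2-/-. The interferon regulator Irf7 was at 35.4 and 226 CPM. The class I antigen gene H2-K1 was at 975 and 2414 CPM. Outside the list, Gbp2b, a guanylate-binding protein, had 0 UMIs in WT and 108 CPM in Tnfr2-/-, at least 322-fold above the limit of 3 UMIs. Gbp2b also had 0 UMIs in the other mesenchymal classes and epithelium of WT Vehicle, and in Mesenchyme-Ptges and epithelium of WT TNF. In Mesenchyme-Ptges and epithelium it was at 25.2 and 6.26 CPM in Tnfr2-/- Vehicle and at 72.9 and 2.01 CPM in Tnfr2-/- TNF. It was thus absent from all these WT sums and present in the Tnfr2-/- ones, so its difference was not particular to the class. Ifit3b was at 11.6 and 187 CPM, and Slfn5 and Ifi208 were also among the 12 largest rises.

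The interferon difference was spread over most cells. Summed per cell without B2m, H2-K1 and H2-D1, the list had a median of 40.7 UMIs per 10000 (7.13 to 201) in WT and 116 (16.6 to 276) in Tnfr2-/-. Of the 51 Tnfr2-/- cells 50 lay above the WT median, and 11 of the 393 WT cells lay above the Tnfr2-/- median. After thinning to 5000 UMIs, Ifit3 was detected in 68.6% (54.1 to 80.9) of Tnfr2-/- and 15.8% (12.3 to 19.8) of WT cells of the class, and in 4.95% of Tnfr2-/- epithelial cells. Without thinning these shares were 90.2%, 31.3% and 12.7%. Cxcl10 was less even, with a UMI in 28 of 51 Tnfr2-/- cells and 42 of 393 WT cells.

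The list was also higher in Tnfr2-/- epithelium, with a median log2 difference between genotypes of 1.20. In Mesenchyme-Ptges, which in WT rests on the 34 shallow cells, the median was near 0, at -0.18. Within the Tnfr2-/- Vehicle library the class stood above Mesenchyme-Ptges by a median of 2.06, with Cxcl10 at 753 against 39.6 CPM. Within WT Vehicle the median of the list was -0.80 against Mesenchyme-Ifitm1, -0.48 against the proliferative class and 0.07 against Mesenchyme-Ptges, with Ifitm1 itself at 130 against 1229 CPM in the class named for it. Ifitm1 in the Tnfr2-/- cells was at 671 CPM.

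**Figure D5:**
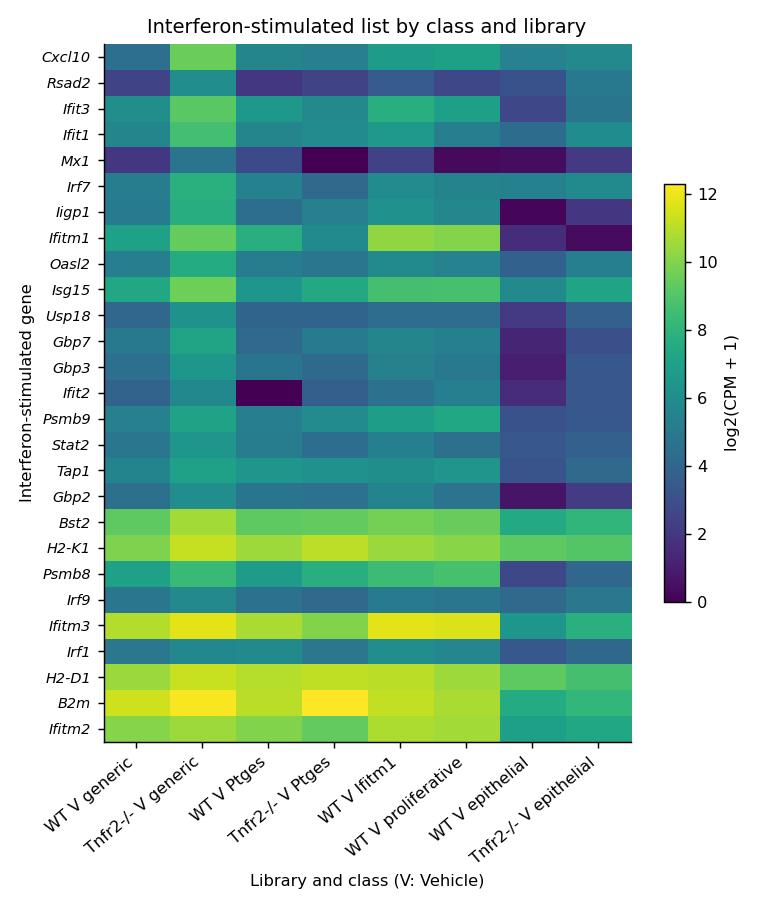
Levels of tested interferon-stimulated genes, log2(CPM + 1), in the class and in other classes of the Vehicle libraries (V), ordered by the genotype difference in the class. The Tnfr2-/- Mesenchyme-generic column is the brighter of the first pair for each gene, while the Mesenchyme-Ptges columns show no such order.

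The upstream sequence of some of these genes holds a letter pattern that interferon regulatory factors bind, the interferon-stimulated response element. The 10-letter pattern GAAANNGAAA, searched on both strands with overlapping matches kept, was in the 250 bases before an annotated start of 936 of 27025 genes (3.46%) in RefSeq promoters on GRCm38.p6. It was in 185 of 5015 tested genes that had a promoter entry (3.69%) and in 41 of the 265 that were at least 2-fold higher in Tnfr2-/- (15.5%). Of 25 list members with an entry 12 held it (48%), and 10 of the 18 that passed. Ifit2, Irf7 and H2-K1 were among the members without it. A match is a description of the letters, not a bound site. Stretches are shown for 6 members that carry the pattern and passed 2-fold. They are written 5′ to 3′ on the gene's strand, with the matches in capitals, which read TTTCNNTTTC where the match is on the other strand.
Ifit1, chr19:34640760-34640838, plus strand: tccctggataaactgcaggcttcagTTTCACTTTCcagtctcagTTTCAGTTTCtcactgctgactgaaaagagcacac
Ifit3, chr19:34583348-34583441, plus strand: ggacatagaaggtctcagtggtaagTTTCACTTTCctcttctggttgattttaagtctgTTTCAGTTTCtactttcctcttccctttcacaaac
Isg15, chr4:156200850-156200921, minus strand: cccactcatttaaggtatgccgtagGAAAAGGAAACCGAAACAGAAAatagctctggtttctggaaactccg
Rsad2, chr12:26456538-26456597, minus strand: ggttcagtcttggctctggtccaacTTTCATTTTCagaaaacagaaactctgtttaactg
Cxcl10, chr5:92349068-92349127, minus strand: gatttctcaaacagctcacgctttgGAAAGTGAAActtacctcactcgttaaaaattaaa
Gbp3, chr3:142559974-142560039, plus strand: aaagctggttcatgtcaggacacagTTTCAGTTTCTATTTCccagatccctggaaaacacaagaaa

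Ifit1 and Ifit3 each held 2 matches and Isg15 3 overlapping ones, and their levels in the class were 7.90-fold (6.94 to 8.99), 8.51-fold and 4.78-fold (4.41 to 5.19) higher in Tnfr2-/-. Gbp3, a guanylate-binding protein, was at 21.5 CPM in WT and 87.0 CPM in Tnfr2-/-.

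Ligands of the crypt top, low in the WT class, were higher in the Tnfr2-/- cells. Of the 8 tested crypt-top and telocyte genes 6 were at least 2-fold higher and 0 lower, with a median log2 difference of 1.53, and of 17 BMP and activin genes 6 were higher and 1 lower. Over all tested genes 5.9% were higher and 2.32% lower. Bmp2 was at 95.3 CPM in WT and 656 CPM in Tnfr2-/- (6.89-fold, 6.26 to 7.58), Bmp5 at 1.67 and 28.2 CPM, Bmp4 at 70.5 and 192 CPM and Bmp7 at 32.9 and 116 CPM. Wnt5a was at 126 and 371 CPM. Of the 9 tested Wnt ligands, R-spondins and antagonists 5 were higher and 1 lower, with Dkk2 at 12.4 and 74.8 CPM and Wnt6, a canonical Wnt ligand, at 13.9 and 86.2 CPM. The one that fell was Sfrp1, a secreted Wnt antagonist, from 202 to 22.1 CPM. In Mesenchyme-Ptges the crypt-top median was -1.72. Neither Grem1 nor Rspo3 reached 2-fold, at 1196 and 1733 CPM and at 116 and 93.1 CPM.

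Among secreted inflammatory proteins, 6 of 16 tested chemokines and cytokines were higher and 2 lower, beside 5.9% and 2.32% of all tested genes. Ccl5 had 0 UMIs in WT and 91.6 CPM in Tnfr2-/- (at least 274-fold), Ccl2 was at 726 and 2033 CPM and Cxcl5, a neutrophil chemokine, at 357 and 1432 CPM. Cxcl12 went the other way, from 141 to 21.4 CPM (6.60-fold lower, 4.54 to 9.97), as did Csf3, from 21.1 to 3.05 CPM. Cxcl1, Il6 and Tgfb1 were at 128 and 102 CPM, at 8.80 and 16.0 CPM and at 89.1 and 83.2 CPM. Lcn2, an iron-sequestering acute-phase protein, was at 898 and 6059 CPM, although Saa3 was only 1.53-fold higher (32010 and 48850 CPM). S100a8, a calcium-binding protein best known from neutrophils, was at 18.3 and 308 CPM, and at 435 CPM in WT Mesenchyme-Ptges. Only 24 of the 51 Tnfr2-/- cells had an S100a8 UMI, and 2 cells held 50% of the 403 UMIs.

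Of 11 tested complement genes 4 were at least 2-fold higher and 1, Cd55, lower, beside the same 5.9% and 2.32% of all tested genes. C3 itself was at 1394 and 1264 CPM and the C1 inhibitor Serping1 at 1000 and 1194 CPM. Clu, the chaperone clusterin, was at 17.7 and 135 CPM and Cfb, complement factor B, at 10.4 and 39.7 CPM. Clu was also at 343 CPM in WT and 806 CPM in Tnfr2-/- epithelium. Among 23 tested genes of TNF receptors and NF-kB 3 were higher and 1 lower, which became 1 and 1 with TMM or median-of-ratios, and Tnf was at 0.334 and 4.58 CPM.

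The matrix lists moved in both directions, beside 5.9% higher and 2.32% lower over all tested genes. Of 15 tested elastic fibre genes 2 were higher and 4 lower, with Mfap4, a microfibril-associated protein, falling from 117 to 6.11 CPM (19.2-fold, 9.70 to 44.6) while Eln rose from 52.3 to 181 CPM. Of 15 basement membrane genes 4 were higher and 0 lower, among them Col15a1, from 3.57 to 41.2 CPM. The metalloproteinase list gave 3 higher and 3 lower of 16, with Mmp3 at 2464 and 7999 CPM and Mmp11 at 67.3 and 9.16 CPM. Lum, a collagen-binding proteoglycan, fell from 987 to 324 CPM. None of 23 cathepsin and lysosome genes passed in either direction. Col1a1 was at 3806 and 2186 CPM.

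Of the 7 markers of the class 3 were at least 2-fold lower in Tnfr2-/- and 0 higher, beside 2.32% and 5.9% of all tested genes. Chodl fell from 772 to 38.9 CPM (19.8-fold, 15.1 to 26.7), Mgp from 631 to 42.7 CPM (14.8-fold, 11.4 to 19.6) and Apoe from 1341 to 383 CPM. Dcn, Ctsk and C3, at 4375, 1151 and 1264 CPM in Tnfr2-/-, did not pass, nor did Saa3. Chodl was detected in 65.3% (60.4 to 70.0) of WT and 7.84% (2.18 to 18.9) of Tnfr2-/- cells after thinning, and in 10.8% and 7.58% of epithelial cells. The Tnfr2-/- share was thus near that of epithelium in the same library. The summed Tnfr2-/- level was higher, at 38.9 CPM (29.0 to 51.2) against 19.2 CPM (18.0 to 20.4) in that epithelium. However, only 8 of the 51 Tnfr2-/- cells had a Chodl UMI, and 1 cell held at least 50% of the 51 UMIs. The interval does not cover such spread between cells. Epithelium is no clean background for Chodl, since WT TNF epithelium was at 34.3 CPM with 0.205 CPM in Mesenchyme-Ptges of that library. Without thinning, at median depths of 21807 and 24774 UMIs, the shares were 77.6% and 15.7%, and 37.1% and 35.5% in epithelium at 37245.5 and 41057 UMIs. A single Tnfr2-/- cell held over 90% of the 56 Mgp UMIs. Of the 59 genes that were higher in the class than in the other WT classes, 27 were lower and 4 higher in Tnfr2-/-, and of 107 tested class-low genes 60 were higher and 3 lower. Both comparisons use the WT Vehicle cells of the class, so these counts are not independent of each other.

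Further large differences came from genes of other functions. Aldh3a1 was at 2.23 CPM in WT and 111 CPM in Tnfr2-/-, which was the level of the WT Ifitm1 and proliferative classes. Cyp26b1, which degrades retinoic acid, was at 3.01 and 93.9 CPM, and Apod, a lipocalin, at 92.6 and 446 CPM. Fcgbp, a mucus protein, was at 0.223 and 24.4 CPM in the class and at 120 and 163 CPM in epithelium. The epithelial list summed to 172 and 240 CPM in the class, and the part of epithelial UMIs in this difference was not tested. Among the largest falls, Ndn, Zfp984 and Lhx8 had 0 UMIs in Tnfr2-/-, at least 11.1-fold, 9.54-fold and 8.81-fold below WT, and Akr1c18 and Lbp had 1 UMI each. The fall of Zfp984 was not particular to the class, with 445 UMIs (8.84 CPM) in WT Vehicle and 8 UMIs (0.158 CPM) in Tnfr2-/- Vehicle epithelium. In Mesenchyme-Ptges, shallow in WT, Akr1c18 and Lhx8 also fell, from 32.1 and 14.6 CPM to 0 UMIs. Mfap4 and Sfrp1 fell there too, from 49.6 to 7.21 CPM and from 46.7 to 6.01 CPM, whereas Ndn, Slc4a4 and Nrn1 were higher in Tnfr2-/-. Slc4a4, a bicarbonate transporter, fell from 46.4 to 3.05 CPM, and Nrn1 completed the 12.

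By profile distance the Tnfr2-/- cells were nearest to the WT cells of their class. The classes came from clustering of these same cells, so this nearness was partly built into the labels. The sums also differ in depth. The share of tested genes at least 2-fold apart was 8.22% between the WT and Tnfr2-/- cells of the class and 8.44% between the class and Mesenchyme-Ifitm1 within WT. From the Tnfr2-/- cells of the class it was 10.1% to WT Mesenchyme-Ifitm1 and 13.8% to Tnfr2-/- Mesenchyme-Ptges. Of 48 class-high genes tested within the Tnfr2-/- library 15 were at least 2-fold higher in the class than in Mesenchyme-Ptges and 11 at least 2-fold lower. When all mesenchymal cells were clustered again, 375 of the class fell in a cluster of 388 cells, of which 387 came from WT Vehicle, and 43 in a cluster of 45 cells that all came from Tnfr2-/- Vehicle.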

How the data were processed

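Single-cell 3' RNA was read in 4 libraries (per the submitters' processing notes, Cell Ranger 5.0.0 and mm10), and the authors filtered and clustered the cells in monocle3. The deposited matrix holds raw counts of UMIs for 30360 genes in 6155 cells, with the authors' class, genotype and treatment for each cell. Counts were summed per class and library, scaled to CPM and compared as log2(CPM + 1). A gene passed at a 2-fold difference and at least 20 CPM in 1 of the sums compared. With 1 library per group no p-value was computed. Limits for 0 UMIs use 3 counts. Sub-clusters (Leiden resolution 0.5, scanpy 1.11.5) used 1000 variable genes and 20 principal components, and scrublet, at an assumed doublet rate of 0.06, marked 46 cells (0.747%), 25 of which had no class. TMM used edgeR 4.0.16. Counting was tested on simulated data. The classes, the 39 gene lists and the markers were chosen with earlier results of these data known, so their counts are not independent support. Genes named were the 7 markers, 22 fixed genes, the 12 and 8 at the ends of the class comparison, the 12 at each end of the genotype comparison, and up to 2 highest and 4 most different genes per list; others are said to be chosen after their values were seen. Leaving out Mesenchyme-Ptges or sub-cluster 4 were alternatives chosen after seeing the data. The level of 1 member of the interferon-stimulated list is not reported here.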

Additional observations from a re-analysis of the deposited data

Results flagged for a closer look

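These results stood out because the genotype difference had opposite signs in Mesenchyme-generic and Mesenchyme-Ptges of the same libraries, and the difference between the classes was not tested, since each rests on 1 library per genotype. The interferon-stimulated list had a median log2 difference, Tnfr2-/- minus WT, of 1.77 in Mesenchyme-generic and -0.18, which is near 0, in Mesenchyme-Ptges, and in epithelium it was 1.20, the same sign as in the class. The crypt-top and telocyte list had 1.53, -1.72 and -0.22 in the same order. Over all genes, 89 were at least 2-fold higher in Tnfr2-/- in Mesenchyme-generic and at least 2-fold lower in Mesenchyme-Ptges, and 26 the reverse. WT Mesenchyme-Ptges was 34 cells with a median of 5755 UMIs and a mitochondrial share of 16.7%, and its part in these values was not tested.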

How the results depend on the processing

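The share of the class in mesenchymal cells kept its order under the 3 alternatives run for it (27.1% to 27.7% in WT Vehicle, 50% to 59.3% in Tnfr2-/- Vehicle). Against 59 higher and 189 lower genes, the class comparison gave 96 lower with a pseudocount of 10 CPM, 215 and 291 without a minimum, 133 higher with a minimum of 5 CPM, 91 higher with TMM and 92 higher with median-of-ratios. It gave 90 lower with both Vehicle libraries summed, 174 and 452 against all other mesenchymal cells summed, and 148 and 290 without Mesenchyme-Ptges, where fewer classes had to be passed. Against 374 higher and 147 lower, the genotype comparison gave 81 lower with a pseudocount of 10 CPM, 935 and 902 without a minimum, 636 and 411 with 5 CPM, 222 lower with TMM and 862 and 438 with joint sub-clusters weighted equally. The cause of the last was not tested. Of 26 genes followed in the class comparison, Chchd10 reversed, to a log2 difference of -0.60 with new clusters. Of 29 interferon genes without a minimum, 19 to 24 were 2-fold higher in Tnfr2-/- across the alternatives, with a median between 1.25 and 1.98. No paired analysis was possible because each group had 1 library. Within the class depth limits the Tnfr2-/- cells more, where 3 UMIs are 2.29 CPM, and Mesenchyme-Ptges was shallower still, with 342542 UMIs in WT and 832661 in Tnfr2-/- Vehicle.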

Other observations

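The single WT TNF cell of the class held 57934 UMIs, of which 1010 were Saa3, 71 Dcn, 22 C3, 20 Ctsk, 1 Chodl and 0 Mgp or Apoe. Its mitochondrial share was 9.18%, against a median of 3.21% in the WT Vehicle cells of the class, and it carried 89 Xist UMIs.

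Genes of hypoxia and glycolysis separated the class from Mesenchyme-Ptges within the Tnfr2-/- Vehicle library. The list summed to 3343 CPM in Mesenchyme-generic and 14230 CPM in Mesenchyme-Ptges, with Gapdh at 820 and 3281 CPM and Egln3, an oxygen-sensing hydroxylase, at 54.9 and 325 CPM. In WT Vehicle the sums were 3097 and 3506 CPM. In the class 1 of 18 tested members was 2-fold higher in Tnfr2-/- and 0 lower, beside 5.9% and 2.32% of all tested genes.

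In joint sub-clusters of both Vehicle libraries, 45 of the 51 Tnfr2-/- cells lay in 1 sub-cluster with 4 WT cells.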
